A study of Arabidopsis thaliana with 18 samples.

Results

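AT1G04770 and AT2G31790 are a pair of Arabidopsis thaliana genes whose transcripts were followed in whole rosettes exposed to sound. AT1G04770 is known from plants short of sulfur, and AT2G31790 is a glycosyltransferase gene linked to glucosinolate synthesis. The files give each by its locus alone, without a symbol or function, so these links are background knowledge. They were picked by locus because earlier results of these data had shown their levels to be high at 2000 and 3000 Hz, so these levels are given as a description without a test. Each gene is represented by 1 probe set, and they are 2 of 13286 genes that the array annotation allowed to be named.

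Arabidopsis accession Columbia (Col-0) plants, grown at 22C in continuous light, were treated at an age of 20 days. They stood for 1 h in a soundproof chamber, the controls in silence and the others under a tone of 250, 500, 1000, 2000 or 3000 Hz played at 80 dB. Each of the 6 groups had 3 biological replicates, each measured on 1 Affymetrix ATH1 array, 18 arrays in all, and the comparisons ask which transcripts differ with sound and between frequencies. All groups are wild type, and the 5 sound groups share the same 3 control arrays.

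Plants take up sulfate and reduce it to sulfide, which is built into cysteine and from there into methionine, glutathione and glucosinolates. Glucosinolates are sulfur-rich defence compounds of the cabbage family, which store an appreciable part of a leaf's sulfur. When sulfur runs short, genes of sulfate uptake and the sulfur-deficiency-induced family rise, while glucosinolate synthesis is held back. Glucosinolate synthesis from methionine starts with chain elongation, continues with formation of the core, which a UGT74 enzyme glucosylates and a sulfotransferase completes, and ends with changes of the side chain.

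The arrays fell into sets that bear on every value below. The mean of the 24 poly-A spike probe sets, which report RNA added during labelling, lay between 5.374 and 5.591 on 12 arrays, those from control up to 1000 Hz. On the other 6, the 2000 and 3000 Hz arrays, it lay between 5.987 and 6.509. The GAPDH 3′ minus 5′ signal, a measure of RNA or labelling quality, ranged over 1.31 to 1.66 for the former and 1.1 to 1.41 for the latter (log2). This set of arrays and the higher frequencies cannot be told apart. The control arrays also stood apart from each other: control replicate 2 differed at least 2-fold from replicate 1 at 1308 probe sets, but from its nearest sound array at only 140, against 1034 and 530 for control replicates 1 and 3. The differences of both genes from control are therefore also given without control replicate 2. Of the markers of tissues, RCA, the rubisco activase of leaves, had log2 signals of 14.09 to 14.32 on all arrays, and the mean of 4 of 6 pollen markers was 4.252 to 4.47. The mean of 8 of 10 root markers was 4.294 to 4.835 in control, 4.312 to 4.592 at 250 Hz, 4.236 to 4.44 at 500 Hz, 4.399 to 4.584 at 1000 Hz, 4.139 to 4.365 at 2000 Hz and 4.589 to 4.659 at 3000 Hz. PYK10, a root beta-glucosidase, was at 8.67, 5.38 and 5.82 in the controls, 5.64 to 7.94 at 250 Hz and 4.32 to 6.02 at 500 Hz. It was at 5.65 to 7.15 at 1000 Hz, 4.14 to 5.41 at 2000 Hz and 6.98 to 7.11 at 3000 Hz. Control replicate 1 had the highest PYK10 signal of all arrays and also the highest AT2G31790 signal of the controls, 9.07. Between 2000 and 3000 Hz the levels of AT1G04770 and AT2G31790 overlapped. The part of root markers in the results was not tested. In such bulk samples, fewer cells of a type and less RNA per cell cannot be told apart.

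AT1G04770 had its lowest levels in silence, intermediate levels at 250, 500 and 1000 Hz and its highest levels at 2000 and 3000 Hz. The log2 signals of the control arrays were 7.38, 8.13 and 6.76 (mean 7.42, SD 0.686, n = 3). At 250 Hz they were 8.46, 8.45 and 8.61 (8.51, SD 0.09, n = 3), and at 500 Hz 8.76, 8.95 and 8.03 (8.58, SD 0.486, n = 3). The control range overlapped that of 500 Hz, where replicate 3 lay below the highest control array, and lay 0.32 below that of 250 Hz. At 1000 Hz the signals were 8.52, 9.05 and 8.72 (8.76, SD 0.268, n = 3). At 2000 Hz they were 10.08, 10.57 and 10.07 (10.24, SD 0.286, n = 3), and at 3000 Hz 10.07, 10.1 and 10.2 (10.12, SD 0.068, n = 3). All 6 arrays of the higher frequencies lay above the other 12 arrays, with a gap of 1.02 between the highest of these and the lowest of the former. Such a complete separation was seen at 70 of the 22746 probe sets tested (0.308%), and nothing is read from it here since it is the pattern for which the gene was chosen.

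**Figure D1:**
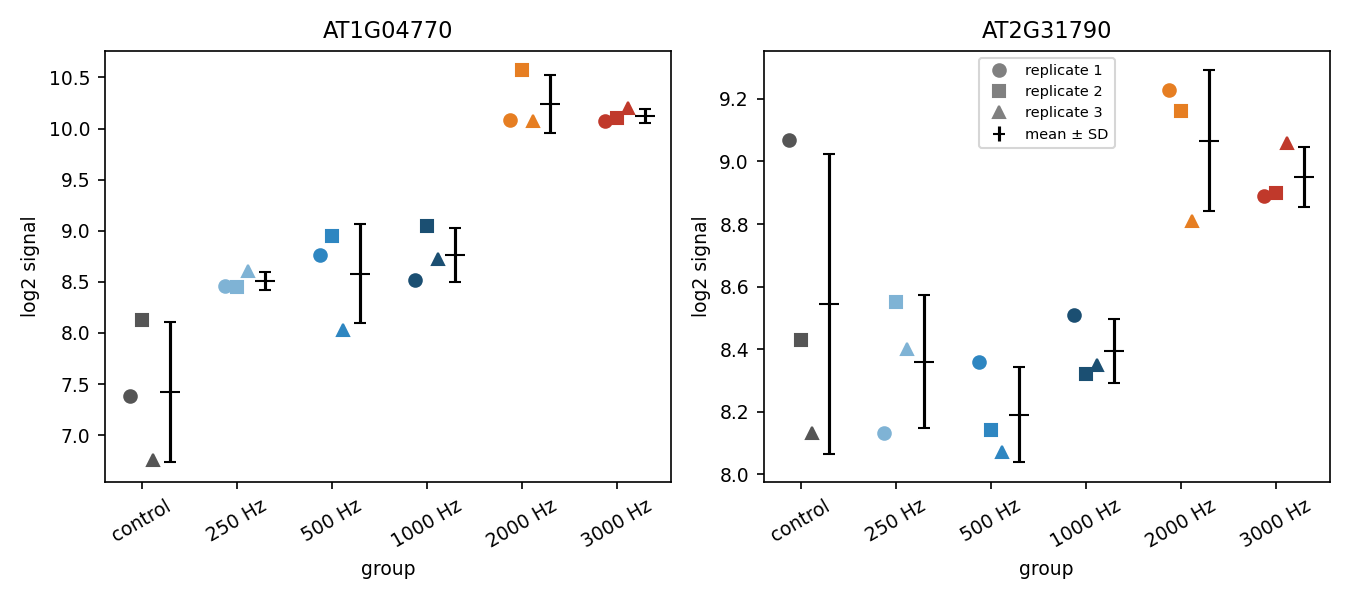
Log2 signal of AT1G04770 and AT2G31790 (vertical axes) on each of the 18 arrays, by group (horizontal axes), where symbols mark the replicate numbers and bars the mean ± SD of 3 arrays. AT1G04770 runs from 6.76 on a control array to 10.57 at 2000 Hz, and AT2G31790 from 8.07 at 500 Hz to 9.23 at 2000 Hz.

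In order of level, AT1G04770 ran control, 250, 500, 1000, 3000 and 2000 Hz. Of the neighbours in that order, 250, 500 and 1000 Hz overlapped each other, and so did 2000 and 3000 Hz, whose means differed by 0.12 ± 0.28 on the log2 scale (SE of the fit). The fitted difference from control was 1.08 at 250 Hz, 1.16 at 500 Hz and 1.34 at 1000 Hz, each ± 0.28. It was 2.82 ± 0.28 at 2000 Hz, a 7.05-fold higher signal, and 2.70 ± 0.28 at 3000 Hz, 6.5-fold. The step from the 3 lower to the 2 higher frequencies, which does not involve the controls, was 1.56 ± 0.18, or 2.96-fold.

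The control arrays decide how large the gene's difference from silence is. Control replicate 2, at 8.13, stood nearest to the sound arrays. Without it the differences were 1.44, 1.51, 1.69, 3.17 and 3.05 from 250 to 3000 Hz. Without control replicate 3, the lowest array of all, they were 0.75, 0.82, 1.01, 2.48 and 2.37. The order of the frequencies was the same in both cases, because each leaves the sound arrays as they are.

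AT2G31790 stood in a narrower range, and its controls lay within it. The control arrays had log2 signals of 9.07, 8.43 and 8.13 (mean 8.54, SD 0.48, n = 3). At 250 Hz they were 8.13, 8.55 and 8.40 (8.36, SD 0.213, n = 3), and at 500 Hz 8.36, 8.14 and 8.07 (8.19, SD 0.151, n = 3). Both of these groups lay within or just below the span of the controls. At 1000 Hz the signals were 8.51, 8.32 and 8.35 (8.39, SD 0.102, n = 3). At 2000 Hz they were 9.23, 9.16 and 8.81 (9.07, SD 0.225, n = 3), and at 3000 Hz 8.89, 8.9 and 9.06 (8.95, SD 0.095, n = 3). The 6 arrays of 2000 and 3000 Hz lay above all 9 arrays of the lower frequencies with a gap of 0.26, but control replicate 1, at 9.07, reached into their range. Both genes kept the higher frequencies apart from the lower ones in this way, as did 229 of the 22746 probe sets (1.01%).

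Its order of levels was 500, 250, 1000 Hz, control, 3000 and 2000 Hz, and the ranges of all neighbours in that order overlapped. Against control the fitted differences were −0.18, −0.35 and −0.15 at 250, 500 and 1000 Hz and 0.52 and 0.41 at 2000 and 3000 Hz, each ± 0.19 (SE). The last 2 correspond to 1.44-fold and 1.33-fold higher signals. The step from the lower to the higher frequencies was 0.69 ± 0.12, or 1.62-fold, whereas 2000 and 3000 Hz differed by 0.12 ± 0.19. Without control replicate 1 the differences from control were 0.08, −0.09, 0.11, 0.79 and 0.67, so the sign at 250 and 1000 Hz turned with that array. Without control replicate 2 they were −0.24, −0.41, −0.21, 0.47 and 0.35.

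The genes thus shared the step between 1000 and 2000 Hz but differed against silence. On the lower frequencies AT1G04770 lay above the control mean and AT2G31790 below it. Over the 18 arrays their signals had a Pearson correlation of 0.638, which was −0.189 over the 12 arrays of control to 1000 Hz and 0.235 for deviations from the group means over 18 arrays. These are descriptions of arrays that share 6 treatments and the spike sets named above. Among 13435 probe sets with a gene name, AT2G31790 ranked 237 by its correlation with AT1G04770, and AT1G04770 ranked 496 by its correlation with AT2G31790.

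**Figure D2:**
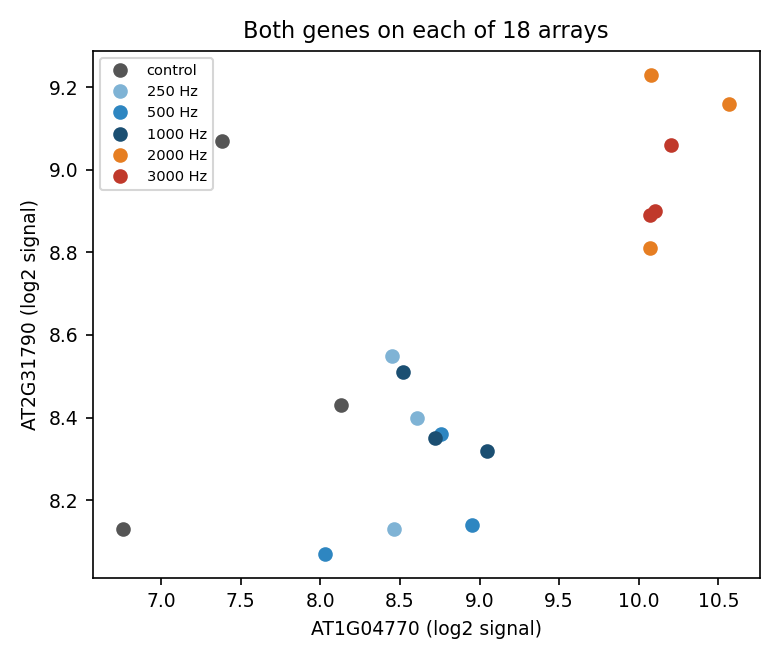
Log2 signal of AT2G31790 (vertical axis) against that of AT1G04770 (horizontal axis), with 1 point for each of the 18 arrays, coloured by group. The 6 arrays of 2000 and 3000 Hz lie together at the upper right, and control replicate 1 lies apart at 7.38 and 9.07.

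The set of arrays moved with both genes. The correlation with the mean poly-A spike signal over 18 arrays was 0.834 for AT1G04770 and 0.767 for AT2G31790. Within the 12 arrays of control to 1000 Hz it was 0.253 and −0.24, and within the 6 of 2000 and 3000 Hz −0.255 and 0.356. These points share treatments, and the 6 are few. The part of the spike difference in the genes' levels was not tested.

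**Figure D3:**
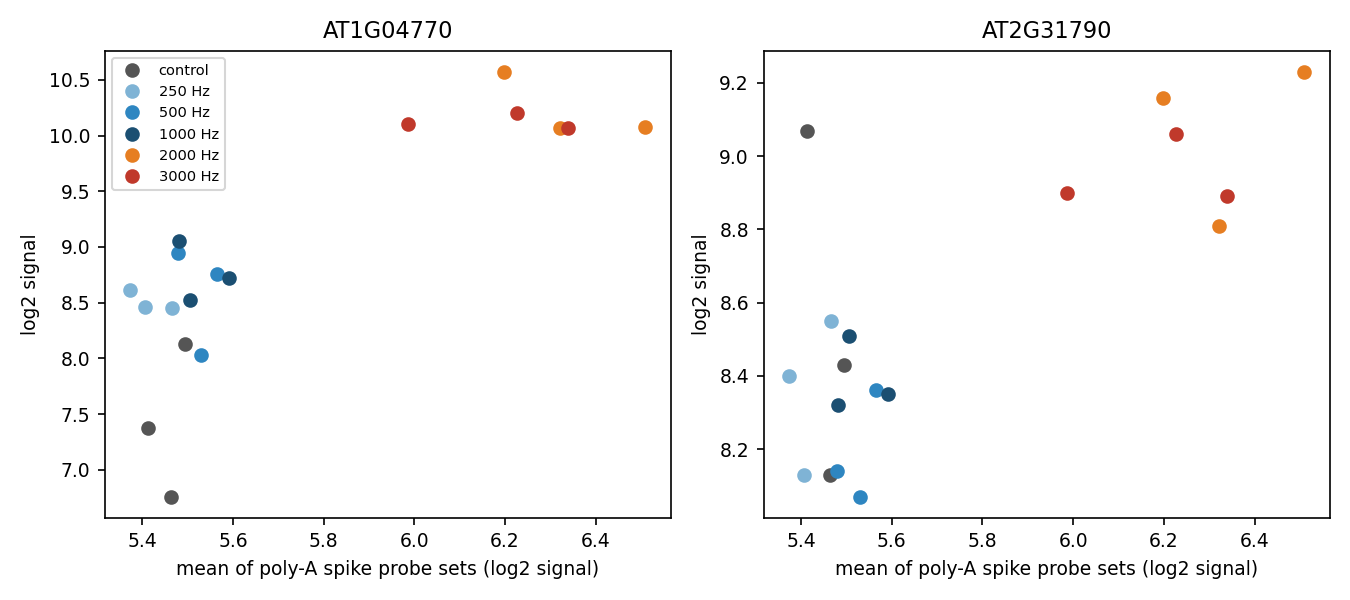
Log2 signal of each gene (vertical axes) against the mean log2 signal of the 24 poly-A spike probe sets (horizontal axes), 1 point per array, coloured by group. The 2000 and 3000 Hz arrays have spike means of 5.987 or more and the other 12 arrays 5.591 or less, so no array joins the clusters.

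Few genes of the same pathways were named by the annotation. Of 33 genes of sulfur starvation and sulfate assimilation 4 were measured, and of 51 genes of glucosinolate regulation, synthesis, transport and breakdown 7. The 51 include 6 MYB and other regulators, of which 0 were measured. A list of 16 genes of sulfur amino acid and thiol metabolism, all measured, was therefore added after the annotation had been seen. Differences were called with limma at a Benjamini-Hochberg adjusted p under 0.05. This called 10 of all probe sets at 250 Hz (0.044%), 2026 at 500 Hz (8.91%) and 0 at 1000 Hz (0%, against 3516 at an unadjusted p under 0.05). At 2000 Hz it called 657 (2.89%) and at 3000 Hz 1502 (6.6%). Between the higher and the lower frequencies 2818 were called (12.4%), and among the 5 frequencies 3556 (15.6%, moderated F test). Without control replicate 2 the shares at 250, 500, 1000, 2000 and 3000 Hz were 9.56%, 17.9%, 9.57%, 11.3% and 12.2%. Since leaving out the control nearest to the sound arrays tends to enlarge differences by construction, calls gained in this way are not read as results. Since nothing in the labels beyond the word biological ties the replicates to separate batches of plants, the p-values measure the spread between these samples.

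Sulfate assimilation begins with ATP sulfurylase, of which APS3 and APS4 were measured. APS3 (AT4G14680) had log2 signals of 9.0, 10.35 and 9.2 in the controls, 10.4, 10.44 and 10.58 at 250 Hz, 10.38, 10.48 and 10.2 at 500 Hz and 10.43, 10.26 and 10.39 at 1000 Hz. At 2000 Hz it was at 10.0, 9.79 and 9.92 and at 3000 Hz at 9.99, 9.84 and 10.09. Control replicate 2 lay with the sound arrays, whereas the other controls lay below all of them. APS3 rose at 500 Hz by 0.84 ± 0.23 (limma adjusted p = 0.0382), the only call of the 4 sulfur genes against control, and the call ended when any of 6 single arrays was left out. The difference at 500 Hz was 0.58, 1.25 and 0.68 without control replicates 1, 2 and 3, so its size turned on replicate 2. Between the lower and the higher frequencies APS3 differed by −0.46 ± 0.15, which did not pass (limma adjusted p = 0.0571).

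APS4 (AT5G43780) differed among the frequencies (limma F test adjusted p = 0.0431), with means of 8.22 at 250 Hz, 9.19 at 500 Hz and 8.71 to 8.94 at the others. That call ended when any of 13 single arrays was left out. BGLU28, a beta-glucosidase that is induced by sulfur shortage, was at 4.42 to 5.89 on 16 arrays and at 8.19 and 8.45 on replicate 3 of 1000 Hz and replicate 3 of 2000 Hz. AT1G04770 was at 8.72 and 10.07 on these arrays, close to the other replicates of its groups. SIR, the sulfite reductase, was at 10.58 to 11.31 and passed in no comparison. The median difference of the 4 sulfur genes was 0.18, 0.47, 0.46, 0.35 and −0.02 from 250 to 3000 Hz, beside −0.02, −0.01, 0.01, −0.02 and 0.00 over all probe sets. Between the higher and the lower frequencies it was −0.30, beside −0.01.

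Of the 7 glucosinolate genes, 0 passed in limma at any frequency against control, and 1 or 2 had an unadjusted p under 0.05 at each. Their median differences were −0.05, 0.03, 0.01, 0.32 and 0.09 from 250 to 3000 Hz. Between the higher and the lower frequencies 6 of the 7 had a positive difference, with a median of 0.24, and 1 passed. BCAT4 (AT3G19710), an aminotransferase of the chain elongation of methionine, had log2 signals of 11.79, 11.13 and 11.41 at 2000 Hz and 11.36, 10.98 and 10.32 in the controls. Its difference of 0.56 ± 0.23 did not pass (limma adjusted p = 0.195). GSTU20, a glutathione transferase linked to the formation of the core structure, was at 11.53 to 12.16 in the controls, 12.15 to 12.64 at 2000 Hz and 12.27 to 12.51 at 3000 Hz. Its step from the lower to the higher frequencies was 0.31 ± 0.11 (limma adjusted p = 0.0804). AOP3, of side-chain modification, stayed between 4.69 and 5.06, near the low end of the scale.

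The called gene of the 7 was a transporter, and 1 of 7 is close to the 12.4% of all probe sets called in this comparison. GTR2 (AT5G62680), which carries glucosinolates across the plasma membrane, had log2 signals of 8.78, 8.11 and 8.23 in the controls, 8.51, 8.29 and 8.12 at 250 Hz, 8.3, 8.33 and 8.25 at 500 Hz and 7.79, 8.13 and 7.84 at 1000 Hz. At 2000 Hz it was at 8.6, 8.73 and 8.76 and at 3000 Hz at 8.55, 8.83 and 8.32. As with AT2G31790, control replicate 1 was the highest control and lay within the range of the higher frequencies. GTR2 was higher at the higher than at the lower frequencies by 0.46 ± 0.11 (limma adjusted p = 0.0134), and this call, unlike that among the frequencies, held with any single array left out. Its relative GTR1 (AT3G47960) was at 8.75, 10.58 and 9.01 in the controls and at 9.66 to 11.2 on the 15 sound arrays. GTR1 passed in no comparison with all arrays, and its control replicate 2 lay within the range of the sound arrays. AT1G54020, which the files give without a function, reached 7.89 in control replicate 1, 9.2 in 250 Hz replicate 1 and 8.78 in 250 Hz replicate 2. The other 15 arrays had 4.04 to 6.68.

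Close relatives did not pass the test. UGT74B1, of the glycosyltransferase family listed as relatives of AT2G31790, glucosylates glucosinolate precursors. It was at 9.63, 8.66 and 8.77 in the controls and at 9.38, 8.94 and 9.16 at 2000 Hz, a difference of 0.14 ± 0.19 (limma adjusted p = 0.745). UGT74D1 differed by 0.13 ± 0.20 at 2000 Hz (limma adjusted p = 0.774), and UGT74F1 stayed between 4.46 and 4.85. From the lower to the higher frequencies UGT74B1 and UGT74D1 each differed by 0.24 ± 0.13 (limma adjusted p = 0.236 and 0.23). UGT74F1 differed by 0.05 ± 0.05 (limma adjusted p = 0.531), so all 3 lay in the direction of AT2G31790. Of these 3 UGT74 genes, 0 passed in limma in any comparison, and 0 had an unadjusted p under 0.05. The measured genes of the list of relatives of AT1G04770 were AT3G51280 and AT5G44330. They had signals of 5.04 to 6.46 and 4.23 to 4.56, and 0 of them passed in limma in any comparison. AT3G51280 had an unadjusted limma p under 0.05 among the frequencies. It also did for 3000 against 2000 Hz (0.8 ± 0.26, limma adjusted p = 0.11), 500 against 250 Hz and 1000 against 500 Hz.

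The sulfur amino acid and thiol genes moved in both directions. Of the 16, 0 passed in limma at 250 Hz (4 at an unadjusted p under 0.05), 1 was lower at 500 Hz, 0 passed at 1000 Hz (2 unadjusted), 1 was higher and 2 were lower at 2000 Hz, and 1 was higher and 1 lower at 3000 Hz. Over all probe sets the shares called were 0.044%, 8.91%, 0%, 2.89% and 6.6% from 250 to 3000 Hz. Between the higher and the lower frequencies 2 of the 16 were higher and 2 lower, beside 12.4% of all probe sets called. The median of the 16 was −0.08, beside −0.01 over all probe sets. Among the frequencies 6 of the 16 differed, beside 15.6%. With probe sets of a mean under 5 left out, 3144 and 3979 of 15601 were called in these 2 comparisons. The counts are given as a description. MMT (AT5G49810), which makes S-methylmethionine from methionine, ran from 9.06 to 9.41 at the lower frequencies and from 9.46 to 9.69 at the higher ones, without overlap. It rose by 0.33 ± 0.06 between them (limma adjusted p = 0.00305), while of its control arrays, at 9.44, 9.33 and 9.34, replicate 1 lay between these ranges and the others within the lower one. GR (AT3G54660), a glutathione reductase, was at 10.17, 10.1 and 9.86 in the controls and at 10.61, 10.44 and 10.4 at 2000 Hz. It rose at 2000 Hz by 0.44 ± 0.09 (limma adjusted p = 0.0247) and between the lower and higher frequencies by 0.35 ± 0.06 (limma adjusted p = 0.00307).

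The thiol list was chosen with earlier results of these data known, so calls of its genes, MSRB9 among them, are no independent support. The largest fall among these genes was that of MSRB9 (AT4G21850), a reductase of oxidised methionine. Its log2 signals were 8.13, 7.96 and 8.55 in the controls, 6.92, 7.05 and 7.01 at 2000 Hz and 7.89, 7.83 and 6.73 at 3000 Hz, against 7.8 to 8.95 at the lower frequencies. All 2000 Hz arrays lay below all others but replicate 3 of 3000 Hz. MSRB9 fell by 1.22 ± 0.28 at 2000 Hz (limma adjusted p = 0.0331) and its step from the lower to the higher frequencies was −1.12 ± 0.18 (limma adjusted p = 0.00223). MSRA5, another such reductase, fell at 500, 2000 and 3000 Hz, with log2 differences of −0.49, −0.48 and −0.61 (limma adjusted p = 0.0231, 0.0417 and 0.0129). MSRB6 rose at 3000 Hz by 0.80 ± 0.18 (limma adjusted p = 0.0192). The calls of GTR2, MMT, GR and MSRB9 between the lower and higher frequencies held with each of the 18 arrays left out in turn. That of MSRA5, with a difference of −0.28 ± 0.08 (limma adjusted p = 0.0302), ended without any of 8 single arrays, and the calls against control each ended without at least 2.

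**Figure D4:**
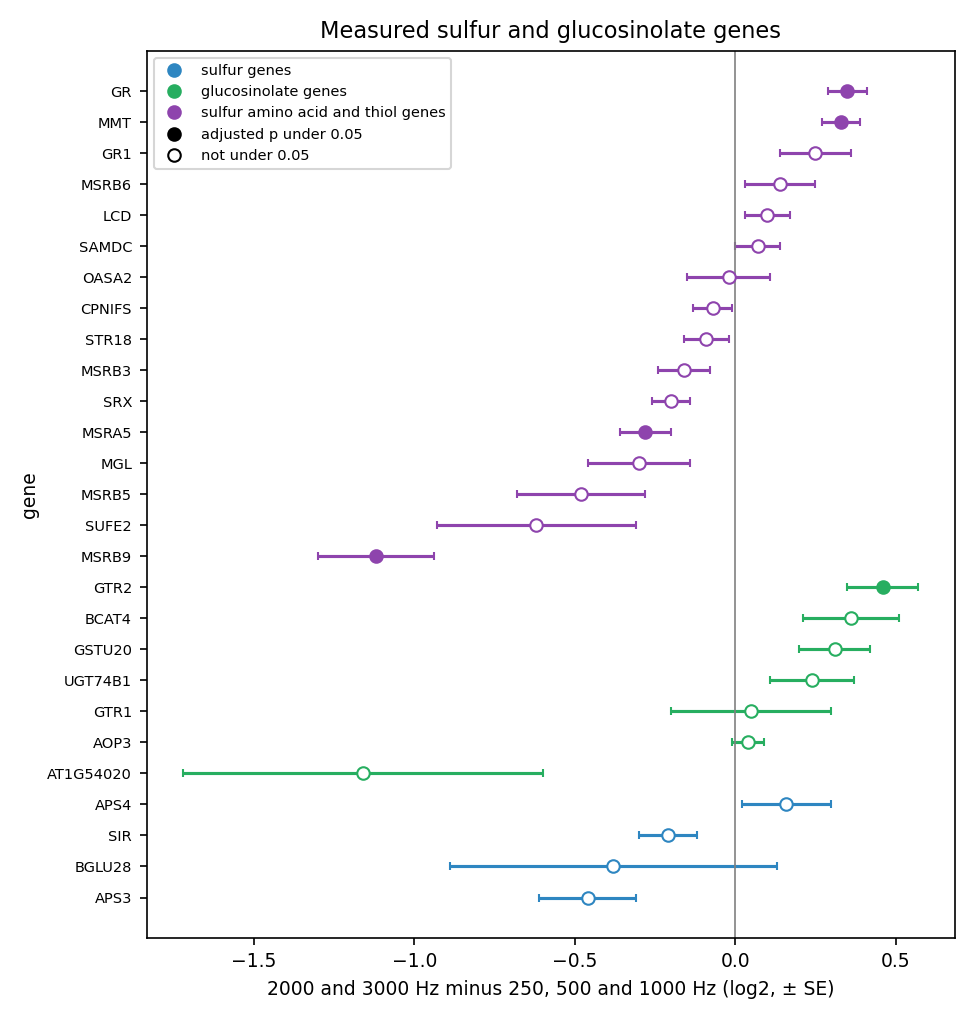
Difference between the mean of 2000 and 3000 Hz and the mean of 250, 500 and 1000 Hz on the log2 scale (horizontal axis, ± SE of the fit) for the measured genes of the sulfur, glucosinolate and thiol lists (vertical axis), with filled symbols for a limma adjusted p under 0.05. GTR2, GR and MMT lie above 0 and MSRB9 and MSRA5 below 0 among the filled symbols.

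The genes most like AT1G04770 over the 18 arrays were AT2G07708 (r = 0.87), AT1G54820 (0.858), AT2G07674 (0.854), AT4G16180 (0.851) and AT5G47360 (0.851). AT2G07708 and AT2G07674 were read by probe sets of the _s_at type, which can match several transcripts, so their signal may not be theirs alone. AT2G07674 was also near the low end of the scale, with group means of 3.91 to 4.35. Over deviations from the group means their correlations were 0.12 and 0.278. AT1G54820 went from a control mean of 7.36 ± 0.131 (SD, n = 3) to 8.47 ± 0.071 at 2000 Hz and 8.05 ± 0.255 at 3000 Hz. The genes that ran most opposite were AT1G11630 (r = −0.953), AT4G32960 (−0.93) and UBA1A (−0.912). AT1G11630 went from a mean of 7.29 ± 0.201 in control to 6.63 ± 0.096 at 2000 Hz, a smaller span than that of AT1G04770. For AT2G31790 the most alike were AT3G50270 (r = 0.903), AT2G33180 (0.901), AT5G65990 (0.892), AT4G30620 (0.885) and AT4G14240 (0.88). AT3G50270 had means of 7.86 ± 0.201 in control, 7.45 ± 0.25 at 500 Hz and 8.53 ± 0.191 at 2000 Hz. The most opposite were AT5G37930 (r = −0.94), AT3G55600 (−0.937) and AT3G58600 (−0.925). Of each top 5, 1 was shared with the top 5 over the 6 group means, and 0 with that over deviations from the group means. Over these deviations the correlations of the listed genes were 0.12 to 0.634 for those like AT1G04770 and −0.822 to −0.7 for its opposites. For AT2G31790 they were 0.668 to 0.78 and −0.864 to −0.806. The genes were picked by correlation over the same 18 arrays, which includes these deviations, so these values are no independent support.

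**Figure D5:**
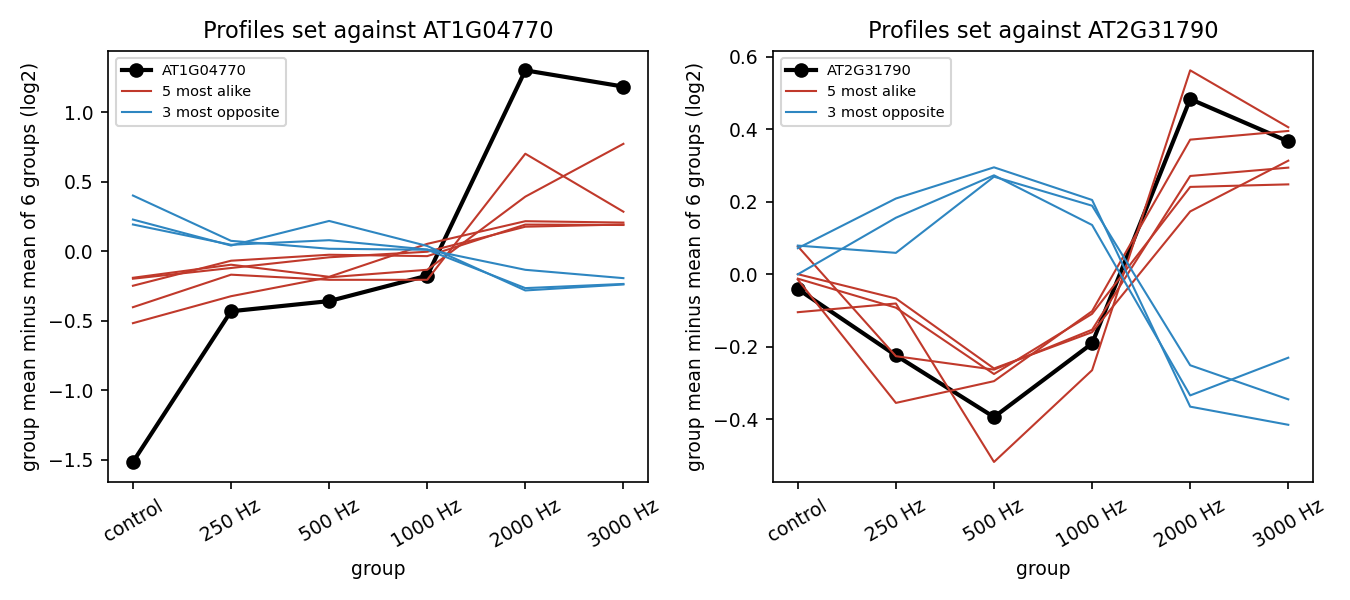
Group mean minus the mean of the 6 groups on the log2 scale (vertical axes) over the groups (horizontal axes) for each gene in black, the 5 most alike genes in red and the 3 most opposite in blue. The red lines for AT1G04770 span less than the gene itself, and those for AT2G31790 lie below their control means at 500 and 1000 Hz as it does.

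Of the 3 nearest protein-coding genes on each side, those at lower coordinates had no probe set assigned to them alone, for either gene. The measured ones on the other side had other profiles. AT1G04780, which lies 2 genes from AT1G04770, had means of 8.39 in control, 8.65, 8.83 and 8.7 at 250, 500 and 1000 Hz and 8.54 and 8.5 at 2000 and 3000 Hz, highest where AT1G04770 was intermediate. AT2G31800, next to AT2G31790, had 8.92 in control, 9.18, 9.49 and 9.28 at the lower frequencies and 9.05 and 8.97 at the higher ones. AT2G31800 was thus highest at 500 Hz, where AT2G31790 was lowest. UGT74D1 (AT2G31750) lies, by its locus number, just beyond these neighbours of AT2G31790 at lower coordinates. It had means of 8.23 in control, 7.88 at 500 Hz and 8.36 at 2000 Hz. Its lowest and highest groups were those of AT2G31790.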

How the data were processed

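The deposited table holds a log2 signal for every probe set of the Affymetrix ATH1 array, with 1 column for each of 18 arrays. Affymetrix Expression Console 1.1, RMA and MAS5 are named per the submitters' processing notes, and which of these methods made the deposited log2 column is not given in the sources used here. RMA-type log2 values compress changes of weak signals. Array medians lay between 6.51 and 6.63, so no scaling was added. Of 22810 probe sets, 64 Affymetrix controls were set aside and 22746 tested; 13513 have 1 gene in the platform annotation, 503 several and 8730 none that could be named. Of the former, 13436 were matched to RefSeq (TAIR10.1), which was used only for names and neighbours. Coordinates served only to order genes along the chromosome, and no sequences were used here.

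One linear model over all 18 arrays and 6 groups was fitted in R 4.3.3 by lmFit of limma 3.58.1. Its variances were moderated by eBayes along a trend on intensity. Tests were two-sided, with Benjamini-Hochberg adjustment over the 22746 probe sets. Errors are standard errors of that fit or SD over 3 arrays, and the number of arrays limits the precision. The fit was tested on data simulated with independent normal noise and changes put in at 2000 Hz, in 50 probe sets per size. Against control it recovered 42% of changes of 0.5, 76% of 1 and 98% of 1.5 and of 2 (log2). It also called 13 unchanged probe sets. A change of 0.5 or less can thus be missed, so a gene that did not pass is not shown to be unchanged. The step between the lower and higher frequencies was added after the levels had been seen. The 2 genes and the lists were chosen with earlier results of these data known. Named were the 2 genes, BGLU28, BCAT4 and UGT74B1 whatever their values, up to 3 passing genes per list, comparison and direction, the 5 most alike and the 3 most opposite genes for each, and others chosen after their values were seen. Alternatives were median centring, a filter on dim probe sets, no intensity trend, array weights, a replicate block, smaller fits and each array left out.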

Additional observations from a re-analysis of the deposited data

Results flagged for a closer look

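AT2G31790 lay below the control mean at 500 and 1000 Hz (−0.35 and −0.15 on the log2 scale) and above it at 2000 and 3000 Hz (0.52 and 0.41), with every array on the side of its group. The difference between these effects was not tested, since the gene was chosen for it, and its value at 1000 Hz turned positive without control replicate 1.

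Of the 27 measured genes of the sulfur, glucosinolate and thiol lists, 8 differed among the 5 frequencies in the moderated F test of limma (29.6%), as did 3556 of all 22746 probe sets (15.6%). With probe sets of a mean under 5 left out, which removes only AOP3 of these lists, 3979 of 15601 were called, a larger share. The lists were chosen with earlier results of these data known, so nothing is read from the count of list genes. The adjusted p was 0.00524 for GR, 0.0106 for MSRB9, 0.013 for MMT, 0.0185 for SRX, a sulfiredoxin, and 0.0232 for MGL, which breaks down methionine. It was 0.0291 for GTR2, 0.0324 for MSRA5 and 0.0431 for APS4. The calls of GR, MSRB9 and MMT held with each array left out, whereas that of MGL ended without any of 2 single arrays, SRX 3, GTR2 6 (adjusted p up to 0.0833), MSRA5 8 and APS4 13. MGL was highest at 250 Hz (7.3, 7.23 and 7.04, against 5.73 to 6.59 on the other 12 sound arrays), and SRX lowest at 3000 Hz (10.17, 10.28 and 10.26, against 10.45 to 10.83).

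The mean of the poly-A spike probe sets, which carry no plant gene, was 6.343 at 2000 Hz and 6.185 at 3000 Hz, above all control arrays (5.412 to 5.495).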

How the results depend on the processing

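Leaving out 1 array at a time moved the difference of AT1G04770 from control within 0.75 to 1.44 at 250 Hz, 0.82 to 1.51 at 500 Hz, 1.01 to 1.69 at 1000 Hz, 2.48 to 3.17 at 2000 Hz and 2.37 to 3.05 at 3000 Hz, and that of AT2G31790 within −0.39 to 0.08, −0.56 to −0.09, −0.36 to 0.11, 0.32 to 0.79 and 0.2 to 0.67. The counts ranged over 0 to 1 at each frequency and between the lower and higher frequencies, and 0 to 2 among the frequencies, for the sulfur genes. For the glucosinolate genes they ranged over 0 to 1 at 250, 500, 2000 and 3000 Hz, 0 to 2 at 1000 Hz, 0 to 3 among the frequencies and 1 to 2 for the higher against the lower. For the thiol genes they ranged over 0 to 2 at 250, 500 and 1000 Hz, 0 to 4 at 2000 and 3000 Hz, 4 to 9 among the frequencies and 3 to 6 for the higher against the lower. Over all probe sets the ranges were 3 to 2175, 2 to 4075, 0 to 2177, 48 to 2576 and 144 to 2769 from 250 to 3000 Hz, 1764 to 5226 among the frequencies and 1604 to 3934 for the higher against the lower; the highest at each frequency against control came without control replicate 2, which lies nearest to the sound arrays.

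With array weights the sulfur genes had 1 call at 250 Hz, 2 among the frequencies and 1 for the higher against the lower, the glucosinolate genes 4 and 4 in the last 2, and the thiol genes 7 in the last. All probe sets then had 141 calls at 250 Hz, 1277 at 500 Hz, 8592 among the frequencies and 5427 for the higher against the lower. Fitted on its own arrays alone, each comparison with control had 0 calls for all lists, and 1, 0, 0 and 0 over all probe sets at 250, 500, 2000 and 3000 Hz, where fewer arrays are tested. The 15 sound arrays alone gave 6238 calls among the frequencies and 4458 for the higher against the lower, with 2 and 1 sulfur and 4 and 4 glucosinolate genes. The 12 control to 1000 Hz arrays alone gave 709 calls at 500 Hz, with 0 sulfur and 0 thiol genes. With dim probe sets left out, 1 sulfur gene was called for the higher against the lower, and 2 and 4 thiol genes at 500 and 3000 Hz; with median centring 2 thiol genes were called at 500 Hz. Centring turned the split of higher and lower calls from 941 and 1085 to 1196 and 800 at 500 Hz, from 647 and 855 to 842 and 685 at 3000 Hz, and from 1366 and 1452 to 1507 and 1292 for the higher against the lower frequencies. Among the differences of the genes from control and the calls of named genes, only AT2G31790 at 250 and 1000 Hz changed direction. With 1 array left out, small steps of AT1G04770 between frequencies also changed sign. They ran from −0.20 to 0.05 for 3000 against 2000 Hz and from −0.11 to 0.35 for 500 against 250 Hz. For 1000 against 500 Hz the range was −0.09 to 0.37. Where no construction is named the cause was not tested.

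The 45 pairs of arrays that share a replicate number had deviations from the group means correlated from −0.325 to 0.351, with 12 pairs over 0.1. Of 18 arrays, 3 correlated best with an array of their own number. Such correlations cannot show whether equal numbers were grown or run together, so pairing was left undecided. The replicate number was also fitted as a block. The block gave 9, 1816, 0, 560 and 1387 calls from 250 to 3000 Hz, 2798 for the higher against the lower and 3231 among the frequencies, and ended the calls of APS4 (0 sulfur genes left, adjusted p = 0.0629) and MSRA5 (adjusted p = 0.0509) among the frequencies and of MSRA5 at 2000 Hz.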
